A study of Schizosaccharomyces japonicus with 2 samples.

Results

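In the long arms of supercontigs 1 to 3 of the fission yeast Schizosaccharomyces japonicus, small RNA from both strands piled up in 19 windows of 1 kb. They were 19 of the 10083 windows of these arms (0.188%), and fell into 11 loci. In all, 78 arm windows (0.774%) were dense by the limit given below, and the other 59 had too few reads on 1 strand in at least 1 library. The RNA came from log-phase cells of wild-type strain yFS275, in a single group of 2 libraries named replicate 1 and replicate 2. No mutant, treatment or second strain was compared, and the labels do not say whether the libraries came from separate cultures, so their spread may be technical. Per the labels' protocols, only RNA with a 5′ monophosphate and a 3′ hydroxyl could be ligated.

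The windows were chosen by their own reads. Reads with a mapped span of 21 to 28 nt were counted at their leftmost base and scaled to 1000000 reads outside the block, which is the first 37000 bases of supercontig 3 (RPM). A window was taken if it reached 100 RPM and had at least 10% of its reads on the minor strand, the strand with fewer reads, in each library. The level and the strand share are therefore descriptions. The number of windows was 36 with each listed sequence counted once, and 10 with the reads of the block in the RPM base. The arms left out the outer 70 kb of the supercontigs, their central stretches and a 9 kb stretch of supercontig 2. At the density limit, the windows just inside held 113.6 and 283.2 RPM (supercontig 1, bases 3995001 to 3996000) and 255.3 and 120.4 RPM (3508001 to 3509000) in replicates 1 and 2. Just outside lay a window of supercontig 3 (1427001 to 1428000) with 146.2 and 96.4 RPM and a window of supercontig 1 (2768001 to 2769000) with 72.0 and 84.6 RPM. At the strand limit, the closest windows inside had minor strands of 11.4% and 16.4% (supercontig 2, 1049001 to 1050000) and of 13.5% and 14.2% (supercontig 1, 1774001 to 1775000). Outside lay bases 1775001 to 1776000 of supercontig 1 with 15.3% and 9.52%, and bases 638001 to 639000 with 9.32% and 18.1%.

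In fission yeasts, small interfering RNA is made by Dicer, a nuclease that cuts double-stranded RNA into short duplexes with overhanging 3′ ends. An Argonaute protein holds 1 strand of such a duplex and uses it to find matching transcripts, and the pathway is known for silencing repeats and transposons. A stretch that gives a duplex leaves small RNA on both strands over the same bases. Reads on both strands of a window can also come from separate sources on opposite strands. Among the 19 windows, some had both strands over the same bases and some had them in separate piles.

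The loci are named A to K in their order along the supercontigs. Windows are numbered within a locus, as B1 to B6. Locus A (bases 1773001 to 1775000, 2 windows) and locus B (1784001 to 1790000, 6 windows) lie on supercontig 1, and B ends at the limit of the arm next to the central stretch. Loci C (2841001 to 2842000), D (3508001 to 3509000) and E (3995001 to 3996000) are single windows of the other arm of supercontig 1. Loci F (972001 to 973000), G (1049001 to 1050000), H (2169001 to 2170000) and J (3613001 to 3614000) are single windows of supercontig 2. Locus I (2379001 to 2382000, 3 windows) lies 2 kb from the left edge of the 9 kb stretch that was left out. Locus K (435001 to 436000) is the only 1 on supercontig 3. The genome build is not given in the sources used here and no sequence or gene annotation of these supercontigs was at hand, so the loci are described by position and reads, and what they encode was not analysed here.

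Replicate 1 had 889190 reads outside the block and replicate 2 had 2457514, so 1 read stood for 1.12 and 0.407 RPM. The block took 71.1% and 29.5% of the reads of 21 to 28 nt. The windows held 16452 and 45041 reads, or 1.85% and 1.83% of the reads outside the block. Single windows held from 101 to 4966 reads in replicate 1 and from 296 to 8006 in replicate 2. Confidence intervals below are exact (Clopper-Pearson, 95%) and cover counting error only, since the labels' protocols name no molecular identifiers and copies made by PCR are not independent. With 2 libraries, no exact permutation test of 2 values against 2 can give a p below 0.333, so differences are given with each library's values.

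**Figure D1:**
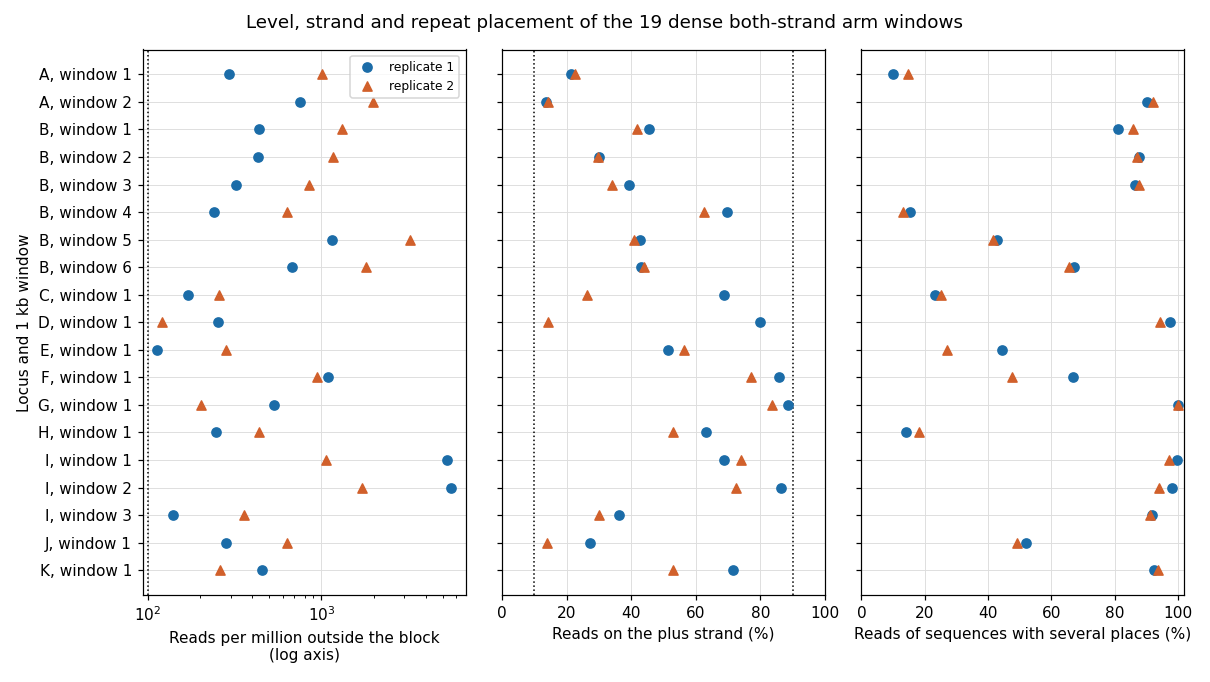
Level (RPM, log axis), share of reads on the plus strand and share of reads of sequences with several places (all as 1 value per library) for the 19 windows, with dotted lines at the limits of the rule. Replicate 2 was higher in 13 windows and lower in 6, and the windows A2, D, G, I1, I2, I3 and K had over 90% of reads with several places in both libraries.

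The highest levels were in locus I and locus B. Locus I summed to 11045 RPM in replicate 1 and 3135 RPM in replicate 2. Most of that lay in I1, with 5321 and 1065 RPM, and in I2, with 5585 and 1713 RPM. Window I3 had 139.5 and 356.9 RPM. Locus I thus led in replicate 1 and locus B in replicate 2. Locus B summed to 3265 and 9049 RPM over 6 windows, from 240.7 to 1152 RPM a window in replicate 1 and from 634.4 to 3258 RPM in replicate 2. Locus A held 1045 and 3004 RPM and locus F 1094 and 944.5 RPM. The other 7 loci held 113.6 to 532 RPM in replicate 1 and 120.4 to 633 RPM in replicate 2.

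Several loci stood alone. Within 5 kb on either side of loci C, E, H, J and K no window passed 13.5 RPM in replicate 1 or 6.10 RPM in replicate 2. Loci F and G each had a second window directly to the left, with 357.6 and 159.9 RPM beside F and 323.9 and 98.9 RPM beside G. Locus A continued to its right in a window of 611.8 and 1782 RPM, the one that missed the strand limit in replicate 2. Beyond the right end of B lay a window of 3879 and 804.9 RPM, outside the arm. Within 5 kb of locus I, across the limit of its arm, lay a window of 18115 and 8077 RPM. Loci B and I thus stand beside dense windows that the arms leave out, whereas C, E, H, J and K are isolated.

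Across these windows the strands met in different ways. To describe this, 5′ ends were counted in bins of 50 nt, and the reads on the minor strand of each bin were summed and divided by the window's minor-strand reads. A value of 100% means that the minor strand is spread under the major one, and 0% that plus and minus reads never share a bin. In 12 windows this value was at least 25% in both libraries, and here the strands are called mixed. These were all windows of A and B, window I3, and C, E and H, with values from 49.2% to 100% in replicate 1 and from 45.7% to 97.1% in replicate 2. In 5 windows (F, G, I1, J and K) it was under 25% in both, from 0% to 5.56% and from 2.80% to 14.6%, and the strands are called apart. The 2 remaining windows, D and I2, had 8.70% and 7.96% in replicate 1 and 45.2% and 30.6% in replicate 2. The limit of 25% and the bins were set after the values were seen, and 11 windows were mixed with bins of 20 nt and 12 with bins of 100 nt. With bins of 200 nt the number was 15, and with a limit of 50% in place of 25% it was 10.

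**Figure D2:**
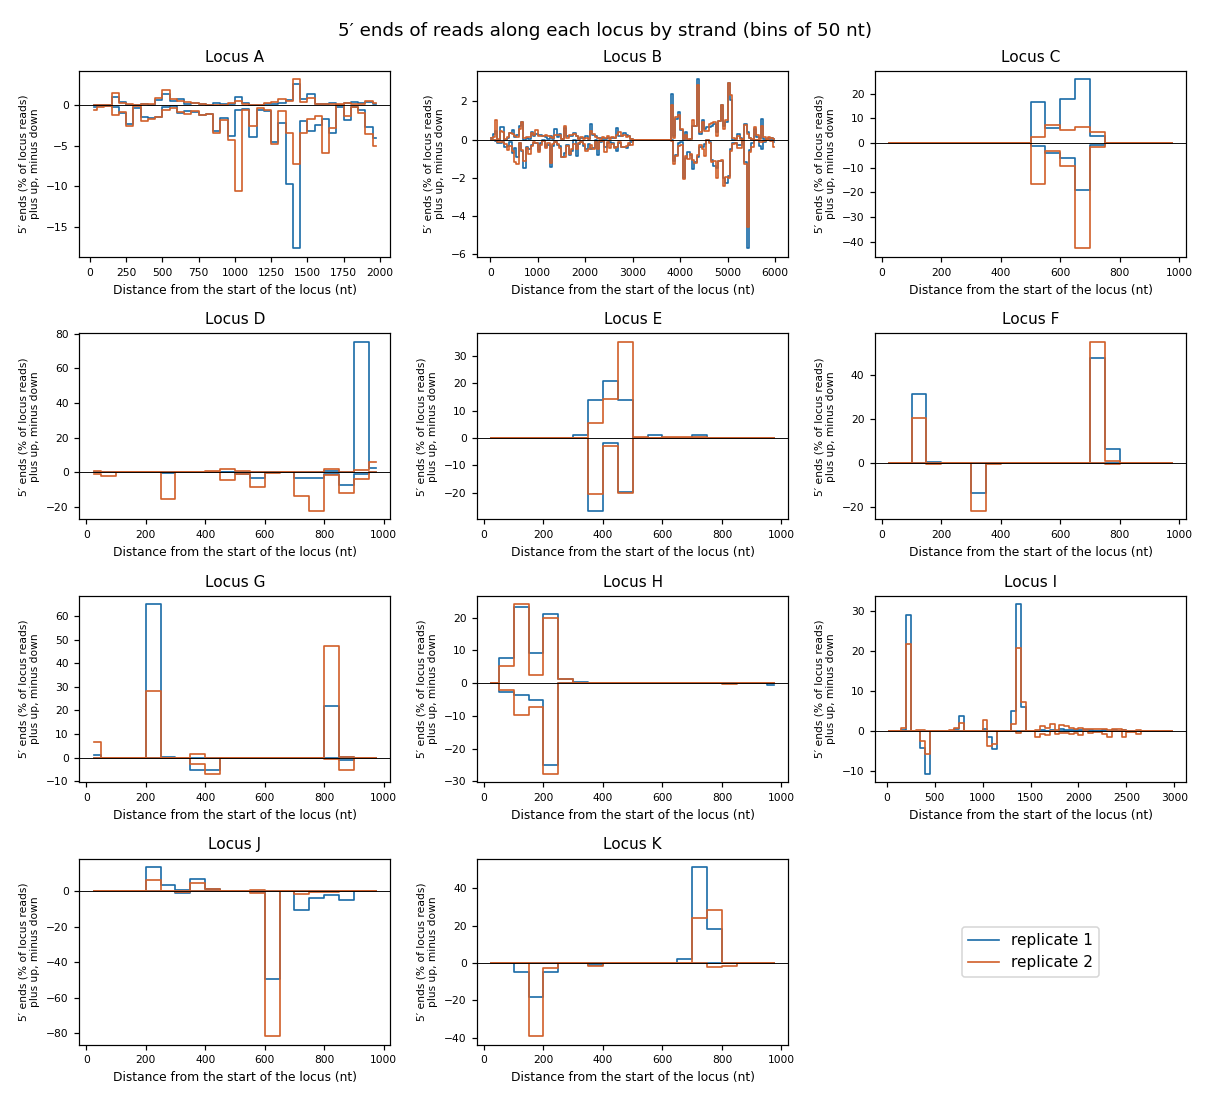
Share of each locus's reads by the position of their 5′ ends, in bins of 50 nt from the start of the locus, with plus-strand reads above and minus-strand reads below the zero line. In loci B, C, E and H both strands rise over the same bins, whereas in F, G, J and K plus and minus reads form piles in different places.

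Locus B is the longest stretch with mixed strands. In B4 the 5% and 95% points of the 5′ ends were bases 1787819 and 1787974 in replicate 1 and 1787824 and 1787986 in replicate 2, so its reads sat at its right end. In B1 to B3, reads of sequences with several equally good places made up 81.2% to 87.8% in replicate 1 and 85.9% to 87.6% in replicate 2, and in B4 they made up 15.4% and 13.3%. Window B5 was the densest of the locus, with 1152 and 3258 RPM, and 42.6% and 41.0% of its reads were on the plus strand. No 5′ end there held more than 2.25% of the reads in replicate 1 or 2.00% in replicate 2. It took 61 and 69 of its 5′ ends to reach 50% of the reads. In B6 42.9% and 43.9% of all reads were on the plus strand. Among its reads with a single best place this share was 70.2% (interval 63.3 to 76.5) and 68.0% (65.6 to 70.3), so its reads with several places lay mostly on the minus strand. In B3 the plus strand held 39.2% and 34.1% of all reads, and 82.1% (66.5 to 92.5) and 73.1% (67.2 to 78.4) of those with a single best place.

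Locus A had the minus strand as its major strand throughout. Window A1 had 21.5% and 22.6% of reads on the plus strand and 9.96% and 14.7% of reads with several places. Window A2 had 13.5% and 14.2% on the plus strand and 90.1% and 92.1% of reads with several places. The leading 5′ ends of A2 differed between the libraries. In replicate 1 a minus-strand end at base 1774449 held 131 reads or 19.6% of the window, and in replicate 2 a minus-strand end at base 1774046 held 535 reads or 10.9%.

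Loci C, E and H are compact islands in sparse surroundings. The stretch between the 5% and 95% points of their 5′ ends was 168 and 181 nt in C, 110 and 110 nt in E, and 181 and 178 nt in H. In H the plus strand held 63.0% (interval 56.2 to 69.4) and 52.8% (49.8 to 55.8) of the reads, and in E 51.5% (41.3 to 61.6) and 56.3% (52.5 to 60.04). They had the lowest shares of reads with several places of the 11 loci in both libraries, with 14.2% and 18.1% in H, 23.2% and 25.3% in C, and 44.6% and 27.2% in E. In H the same plus-strand 5′ end, at base 2169247, led in both libraries with 17 reads (7.76%) and 176 reads (16.3%). In H, base 2169210 carried a plus-strand 5′ end of 12 reads and a minus-strand 5′ end of 13 reads in replicate 1. In E, the minus-strand end at base 3995463 led in replicate 1 with 9 reads, and the plus-strand end at the next base, 3995464, led in replicate 2 with 133 reads.

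The major strand of locus C changed between the libraries. The plus strand held 68.9% of its 151 reads in replicate 1 (interval 60.8 to 76.2) and 26.2% of its 629 reads in replicate 2 (22.8 to 29.9). Leaving out the leading 5′ end of each library gave 64.7% and 29.6%, and reads with a single best place gave 68.1% and 31.3%, so the major strand changed in the same direction in each. At base 2841666 a plus-strand end led with 18 reads in replicate 1, and a minus-strand end at the same base had 62 reads in replicate 2. Locus D changed too, with 79.7% (73.9 to 84.8) and 14.2% (10.4 to 18.7) of its reads on the plus strand. There a single plus-strand 5′ end, at base 3508925, held 164 of the 227 reads of replicate 1. Without the leading end of each library the plus strand held 26.98% and 16.7% in D, and 97.4% and 94.3% of its reads had several places. Its 6 and 17 reads with a single best place were 100% and 88.2% on the plus strand, so the major strand did not change among them.

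In the windows with strands apart, few 5′ ends carried the reads. Between 1 and 4 ends were enough for 50% of the reads in both libraries, against 8 to 61 ends in replicate 1 and 5 to 69 in replicate 2 in the windows with mixed strands. The layout was called from these same 5′ ends, and few ends leave few bins for the strands to share. The contrast is therefore a description. Locus J had its largest pile on the minus strand, where the ends at bases 3613604 and 3613603 held 32.4% and 15.6% of the reads in replicate 1 and 52.1% and 23.3% in replicate 2. The reads from base 3613604 were mostly of 24 nt (84.0% and 81.0%), and those from base 3613603 mostly of 23 nt (97.4% and 96.7%), so both sets end at the same 3′ base. The plus-strand reads of J had their median 5′ end to the left of this pile, at base 3613227 in replicate 1 and 3613342 in replicate 2.

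Loci F and G each had a pair of plus-strand piles. In F the leading end of the left pile was base 972124 with 210 and 442 reads, and that of the right pile was base 972722 with 218 and 839 reads, 598 nt further. Its leading minus-strand ends lay between them, at base 972319 (57 reads) in replicate 1 and 972349 (450 reads) in replicate 2. In G the left pile led with base 1049217, with 282 and 111 reads. The right pile led with base 1049807 in replicate 1 (41 reads, 590 nt further) and base 1049809 in replicate 2 (134 reads, 592 nt further). The leading minus-strand end of G held only 11 reads in replicate 1, 178 nt from the left pile. In replicate 2 it held 9 reads and lay 642 nt from the left pile, beyond the right pile. The median minus-strand 5′ end of G lay between the piles in both libraries, at bases 1049402 and 1049430. Every read of G belonged to a sequence with several places. The spacing of these piles was looked at after the values were seen.

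In locus K, a minus-strand pile with its leading end at base 435194 (34 and 183 reads) and a plus-strand pile at base 435750 (188 and 153 reads) stood apart. In I1 the plus-strand ends at bases 2379240, 2379241 and 2379242 held 22.3%, 18.7% and 7.69% of the reads in replicate 1, and 25.4%, 12.0% and 6.42% in replicate 2. A smaller plus-strand pile stood in the right part of I1. Its minus-strand reads lay between these piles, with their median 5′ end at base 2379414 in replicate 1 and 2379415 in replicate 2. In I2 the median plus-strand 5′ end was base 2380371 in replicate 1 and 2380374 in replicate 2. The stretch between the 5% and 95% points there was 300 nt in replicate 1 and 862 nt in replicate 2.

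Whether a window had both strands depended in some loci on reads with several places. With only reads of a single best place, 12 of the 19 windows still met the limits, namely all 8 windows of A and B and the loci C, E, H and J. Locus F kept 322 and 1214 such reads, of which 0 and 1 lay on the minus strand. With 3 reads taken as the most that a count of 0 allows, this is up to 0.932% in replicate 1. The exact interval there puts at least 98.9% on the plus strand. All but 1 of the minus-strand reads of F thus came from sequences with several places. Locus K kept 31 and 41, with 0 and 1 of them from the plus strand. By the same 3 reads, the count of 0 allows up to 9.68%, and the exact interval reaches 11.2%. Locus G kept 0 and D kept 6 and 17. Reads with several places are listed at 1 of them, so in D, F, G, I and K it is not certain that both strands belong to the listed position.

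The libraries held the windows in different proportions, and among the 19 this went with the layout of the strands, whose limit was set after the values were seen. All 12 windows with mixed strands were higher in replicate 2, by 1.51 to 3.44 times with a median of 2.65. They lie in 6 loci, and 8 of the 12 belong to the neighbouring loci A and B. How many of all dense windows were higher in replicate 2 was not counted, so this count has no background share beside it. Of the 5 windows with strands apart, 4 were lower in replicate 2, at 0.2001 to 0.863 times replicate 1, and J was 2.25 times higher. The 2 remaining windows, D and I2, were at 0.472 and 0.307. Within locus I, I1 and I2 were at 0.2001 and 0.307 and I3, with mixed strands, at 2.56. Summed over the windows, reads with several places made up 59.5% and 60.2% where the strands were mixed, and 92.8% and 72.2% where they were apart. Their part in the result was not tested. Classes outside the 19 windows also differed between the libraries: of all reads that enter the RPM base, 40.9% and 70.7% lay in dense both-strand windows outside the arms, and 8.33% and 4.87% in the other dense arm windows. The median ratio over the 19 windows was 2.49, and it was 1.203 with each listed sequence counted once and 6.09 with the block in the RPM base.

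**Figure D3:**
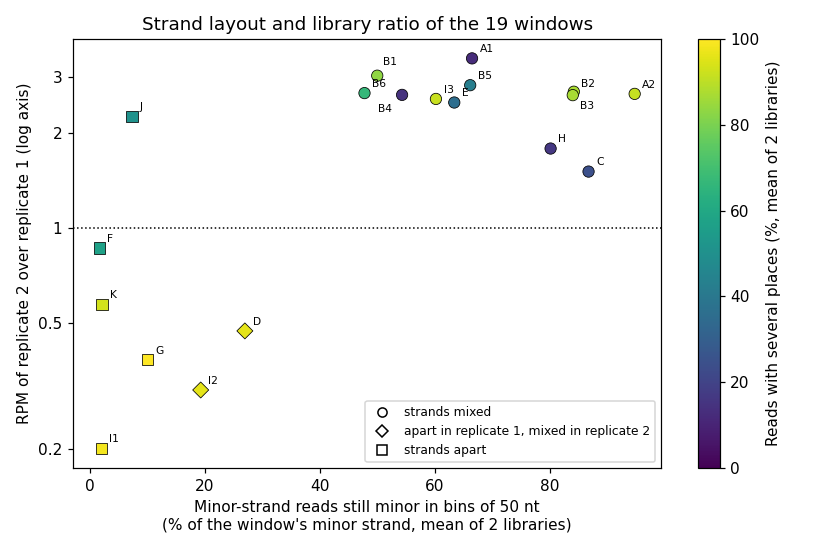
Ratio of RPM between the libraries (log axis) against the layout of the strands for the 19 windows, coloured by the share of reads with several places. The layout is the sum of reads on the minor strand of each 50-nt bin, in percent of the window's minor-strand reads (mean of 2 libraries). The 12 windows with mixed strands all sit above 1, and of the other 7 all but J sit below 1.

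Spans of 21 to 25 nt made up nearly all reads, and 23 nt was not always the most frequent. The share of 23-nt reads over all windows was 21.3% in replicate 1 and 31.7% in replicate 2. The low value in replicate 1 went with locus I, which held most of the windows' reads in that library, and without it the shares were 28.6% and 32.0%. Over single windows the median was 29.5% and 31.4%. In 7 of the 19 windows (36.8%) both libraries had 23 nt as their commonest span, against 62.5% of all 606 dense windows outside the block. These 7 windows were all among the 12 with mixed strands. They were A1, I3 and every window of B except B3.

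The median share of 23-nt reads was 34.2% and 34.8% over windows with mixed strands, and 19.8% and 25.4% over those apart. Of the 12 windows with mixed strands, 8 belong to the neighbouring loci A and B, where the median was 36.7% and 36.2%. In locus B 23 nt held 34.7% and 36.3%, and 21 nt held 12.0% and 9.63%. In the compact islands no span passed 31.1% in replicate 1 or 30.4% in replicate 2, both at 22 nt in C. Reads of 23 nt made up 18.5% and 25.6% in C, 25.7% and 28.3% in E, and 24.7% and 24.7% in H. Though mixed, these lie within the range of the windows with strands apart (9.88% to 26% in replicate 1 and 6.72% to 32.3% in replicate 2). The leading span could differ between the libraries in loci with strands mixed as well as apart. It was 23 nt in replicate 1 and 24 nt in replicate 2 in A, 22 and 23 nt in E, 22 and 24 nt in H, and 21 and 23 nt in I. In the mixed loci A, E and H, however, the exact intervals of the leading span and the next overlapped in both libraries. In A, 23 and 24 nt held 33.9% and 32.2% in replicate 1, and 29.3% and 30.4% in replicate 2. In F, 22 nt led in replicate 1 with 25.6% and 24 nt in replicate 2 with 48.6%. In G, 24 nt held 52.0% in replicate 1 and 14.4% in replicate 2, where 22 and 23 nt tied for the lead with 26.6% each. In K only 9.88% and 6.72% of the reads were of 23 nt, while 21 nt led in replicate 1 (29.6%) and 25 nt in replicate 2 (37.03%). J was led by 24 nt in both (37.2% and 45.1%). In I1, 21-nt reads made up 42.8% and 18.2%. In D, 22 nt led in replicate 1 (45.4%) and 24 nt in replicate 2 (52.7%).

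**Figure D4:**
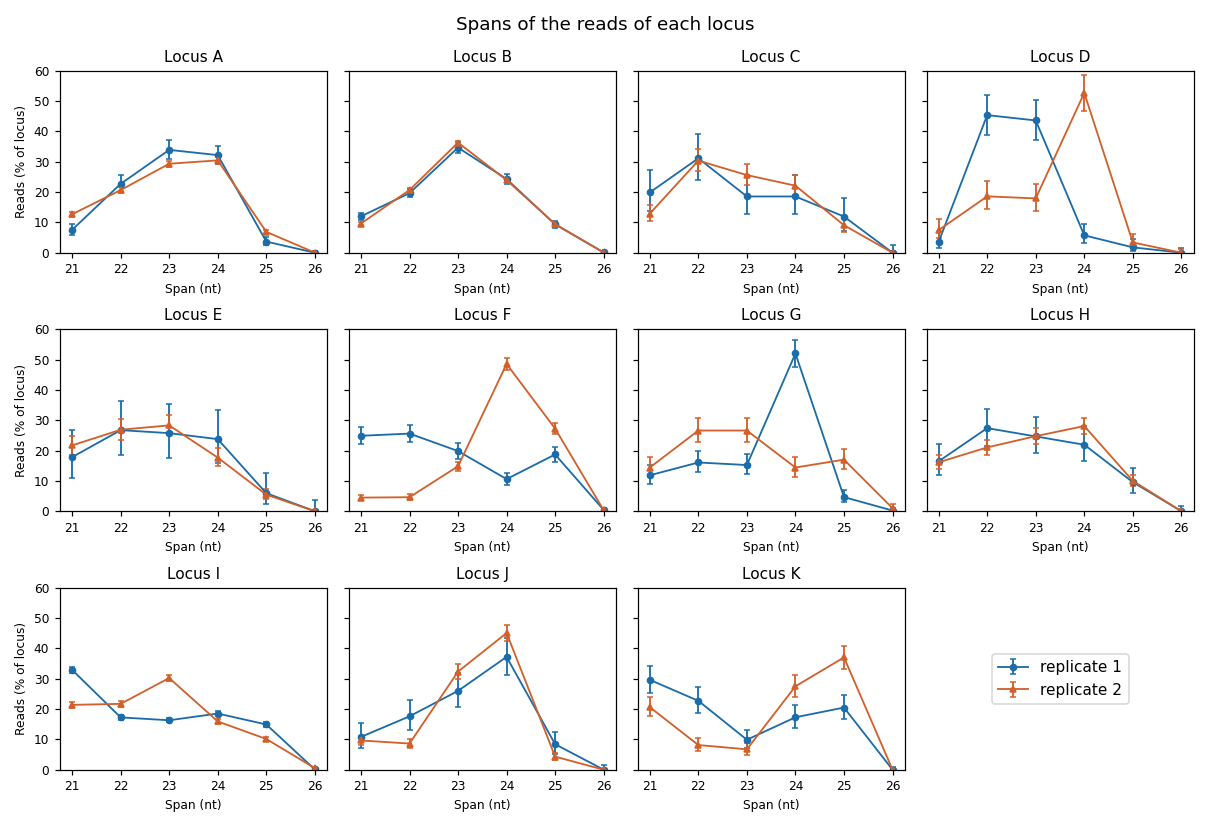
Share of the reads of each locus by span from 21 to 26 nt, with exact 95% intervals for counting error. In locus B both libraries peak at 23 nt, and in C, E and H no span passes 31.1%. In A, D to I and K the libraries peak at different spans, though in A, E and H the intervals of the highest span and the next overlap.

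Against the rest of the series, the windows stood below the dense both-strand windows outside the arms in 23-nt share, with 26.5% ± 7.36 against 34.2% ± 4.37 (SD, n = 2 libraries each). This held in both libraries (21.3% against 31.1%, and 31.7% against 37.3%). An exact two-sided permutation test over libraries gave p = 0.667, or 0.8 after Benjamini-Hochberg adjustment over 6 comparisons. It cannot give a p below 0.333 here, so it cannot decide whether the classes differ. The compared windows come from the same libraries, and with the libraries as pairs an exact sign-flip permutation test cannot give a p below 0.5. In 5 of the 6 comparisons the difference had the same sign in both libraries, with an exact paired permutation p of 0.5 each. The other 59 dense arm windows had 23.8% ± 3.72. The 51 arm windows with both strands but too few RPM, counted from 10 reads up in both libraries, had 21.8% ± 2.10. For both differences from the 19 windows the unpaired exact permutation test gave p = 0.667 (adjusted p = 0.8), which cannot decide them. The share of 21-nt reads was 19.0% ± 9.19 in the 19 windows, 19.6% ± 3.99 in the other dense arm windows, 24.5% ± 2.56 in the sparse ones and 13.7% ± 4.12 in the dense both-strand windows outside the arms. Without locus I, the 19 windows' value became 14.4% in replicate 1 and 10.6% in replicate 2. None of these differences passed the exact permutation test over libraries either (p = 1 and adjusted p = 1 against the other dense arm windows, and p = 0.667 and adjusted p = 0.8 against the others).

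Opposite-strand reads were offset as in duplexes with 3′ overhangs of 2 nt more often than at other offsets. Distinct positions of the same span on opposite strands were paired by the difference of their starts, and a duplex with such overhangs has the minus position starting 2 nt to the left. Replicate 1 had 77 pairs at this offset against 49.0 ± 7.67 (mean ± SD over the 20 other offsets within 10 nt), a ratio of 1.57. Replicate 2 had 628 against 481 ± 42.8, a ratio of 1.31. In both libraries this was the highest of the 21 offsets. With positions of 2 or more reads, the mean ratio was 2.17 in place of 1.44. The ratios were 2.14 and 1.52 in the other dense arm windows and 1.62 and 1.39 in the dense both-strand windows outside the arms. The sparse both-strand arm windows had 0 pairs against a mean of 0.6 and 4 against 4.25. Windows with mixed strands were chosen for strands that share bins, so they hold most pairs at any offset. They had 74 pairs against a mean of 45.55 at the other offsets in replicate 1 and 586 against 443.6 in replicate 2, ratios of 1.62 and 1.32. Windows with strands apart had 0 against 0.6 and 12 against 6.85. Locus B had 56 against 34.9 and 495 against 362.9.

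**Figure D5:**
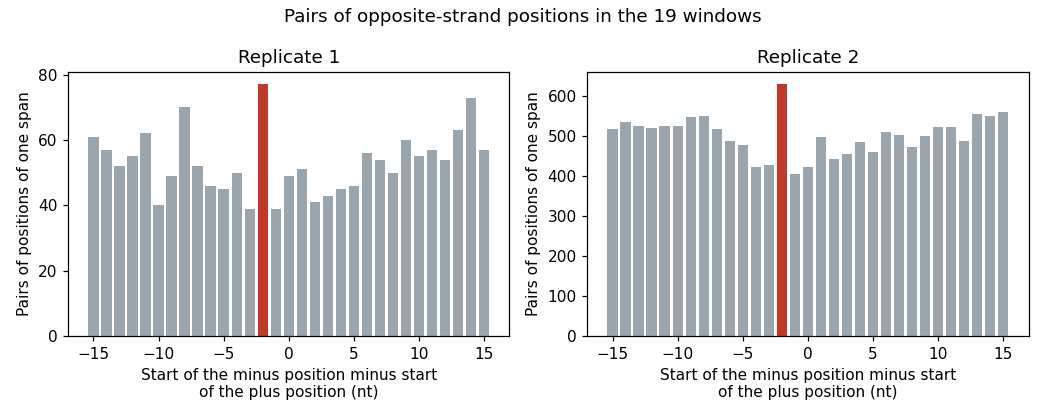
Number of pairs of opposite-strand positions of the same span in the 19 windows, by the start of the minus position minus the start of the plus position, with the offset of a duplex with 2-nt 3′ overhangs in red. The bar at that offset holds 77 pairs in replicate 1 and 628 in replicate 2, the most within 10 nt.

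Counted by reads, 1.77% and 13.2% of the reads of the windows had a partner at this offset, and a mean of 1.37% and 8.83% had one at the other offsets. Replicate 2 listed more distinct positions in every window, so these shares cannot be compared between the libraries. In locus B the shares were 7.44% and 22.2%, against 4.40% and 13.4% at the other offsets. In locus H they were 9.59% and 12.1%, against 5.64% and 7.53%. In the windows with strands apart and in D few reads had a partner at any offset. None had one at this offset in D or G, against 0% and 0.304% at the other offsets in D and 0.0423% and 0.3% in G. In F the shares were 0% and 0.0862%, against 0.0565% and 0.222%. In J they were 0% and 2.57%, against 0% and 2.11%, and in I1 0% and 2.29%, against 0.433% and 1.41%. In K they were 0% and 1.09%, against 0% and 1.39%. In locus A, which has mixed strands, there was no excess, with 3 pairs against a mean of 3.30 at the other offsets in replicate 1 and 45 against 45.5 in replicate 2. Locus C had 4 pairs against 2.80 and 8 against 10.1. Without locus B the ratios over the other 13 windows were 1.48 and 1.13. Pairs of same-strand positions in which 1 started where the other ended were 1.21 and 1.13 times as common as pairs offset by up to 5 nt from that. This was not particular to the 19 windows. The ratios were 1.19 and 1.12 in the dense both-strand windows outside the arms and 1.13 and 1.11 in the other dense arm windows. In the sparse both-strand arm windows they were 1.44 and 1.33.

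The libraries used many of the same 5′ ends in different proportions. Between 76.2% and 98.1% of the replicate 1 reads of a window began at an end also found in replicate 2, the deeper library. In the other direction the share ran from 22.3% in D to 96.9% in F. The overlap of the 5′-end distributions, summing the smaller share of each end, had a median of 54.2% over the windows. It was highest in I1, at 73.6%, and lowest in D, at 7.92%. The same 5′ end led in both libraries in 5 windows, F, H, I1, I3 and J.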

How the data were processed

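Small RNA was measured in 2 libraries. The labels' protocols state 40 µg of total RNA, a size cut of 10 to 40 nt and sequencing on an Illumina instrument. The deposited files list distinct sequences with 1 place each, a label of a rank and a second number, taken here as the number of identical reads, and a mapping score of 0 to 37 given by the authors. Other than this score, the unit of the deposited values is taken here as raw read numbers, and the file contents record no normalization. A score of 0 was read as several equally good places. BWA was used, per the submitters' processing notes, with a version, settings and genome build that the sources used here do not give.

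Windows, RPM, bins, spans and pairs were computed with Python 3.11.15, numpy 2.4.6, pandas 2.3.3 and scipy 1.17.1. Windows with fewer than 2 others between them were joined. Window calls and pair counts were tested on simulated data. The members, the lists and the measures were chosen with earlier results of these data known. The rule for naming loci took the 8 with the highest mean RPM, and the 3 highest and lowest in 23-nt share, in library ratio and in share of reads with several places, and so named all 11. Other settings are compared at the end.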

Additional observations from a re-analysis of the deposited data

Results flagged for a closer look

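Reads shorter than 21 nt, which the windows leave out, numbered 22 in the 19 windows in replicate 2, above the 3 that a count of 0 allows. Of these, 11 lay in the first window of locus B and 9 in locus J, and replicate 1 had 2 in the 19 windows. Over the whole of replicate 2, 3485818 of the 3492513 reads were of 21 to 28 nt, and no span passed 27 nt. Shorter reads were thus not particular to these windows.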

How the results depend on the processing

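There is 1 group, so no groups were paired. Treating the libraries as pairs in the 6 comparisons of classes, a replicate block chosen after seeing the data, kept the differences at -7.76 to 4.65 percentage points for 23 nt and -5.57 to 5.29 for 21 nt. Its exact permutation p was 0.5 in 5 comparisons and 1 for 21 nt against the other dense arm windows, with 0.5 the smallest it allows. The number of windows was 36 with each listed sequence counted once and 10 with the block in the RPM base. It stayed within 1.5 times of 19 under the 6 other alternatives (13 to 24). Taking 1 library alone gave 25 and 28 windows, among them the 19.

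The share of reads in the windows, 1.84% as a mean of the libraries, was 1.55% for single-place reads, 2.69% with each sequence counted once, 1.89% and 1.76% at 50 and 200 RPM, 2.06% and 1.14% at minor strands of 5% and 20%, and 0.722% with the block in the base. It was 1.98% and 2.15% with 1 library. The mean pair ratio of 1.44 was 1.67 for single-place reads and 2.17 for positions with 2 or more reads, and ran from 1.31 to 1.57 with 1 library. The median library ratio of 2.49 was 1.203 with each sequence counted once and 6.09 with the block in the base, and it cannot be had from 1 library. The causes were not tested.

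Shares of spans, strands and repeats moved by less than the SD of the 2 libraries under each alternative tried for them. That SD was wide, at 7.36 points for 23 nt and 9.19 for 21 nt, so large moves can pass below it. With single-place reads the mean share was 32.3% in place of 26.5% at 23 nt, and 10.9% in place of 19.0% at 21 nt. With 1 library the shares ran from 21.3% to 31.7% at 23 nt and from 12.5% to 25.5% at 21 nt. The share with several places ran from 65.6% to 85.5% and that on the plus strand from 43.5% to 67.3%. The same-strand ratio ran from 1.13 to 1.21. Leaving out locus I, an alternative chosen after seeing the data, gave means of 30.3% at 23 nt, 12.5% at 21 nt, 62.8% for several places and 45.4% on the plus strand. Depth limits E, I3, C, B4 and H most, with 101 to 219 reads in replicate 1.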

Other observations

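With reads of a single best place, 7 arm windows outside the 19 met the same limits. On supercontig 1 they began at bases 1641001, 1772001, 2742001 and 2768001, on supercontig 2 at 263001 and 2056001, and on supercontig 3 at 460001. Other than the last, each was under 100 RPM in at least 1 library when all reads were counted. The window at 460001 to 461000 of supercontig 3 had 872.7 and 486.7 RPM over all reads, with a minor strand of 8.38% and 4.52%. Its reads with a single best place had 804.9 and 224.8 RPM on their own base, with a minor strand of 33.5% and 32.7%.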
